A study of Homo sapiens with 12 samples.

Results

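The kinase inhibitor SGI-7079 changed many of the same genes in 2 leukaemia cell lines, and the results below describe where its effect was not the same in both. The quantity is a difference of effects for each gene, the log2 fold change of SGI-7079 against DMSO in MV411 minus the same log2 fold change in MOLM13. Its members are all 36041 genes of the count table that carry a gene name, of 36041 in the table, and no measured value was used to choose them. In 26472 of them the name is a symbol and in the other 9569 it repeats the Ensembl identifier. Counts were high enough to test 21438 genes, 17564 of them with a symbol, and 14603 were not tested. RNA was sequenced from 12 libraries in 4 groups of 3, which were MOLM13 cells with DMSO, MOLM13 cells with SGI-7079, MV411 cells (also written MV4-11) with DMSO, and MV411 cells with SGI-7079. The compound was given at 10 nM and RNA was taken after 24 hours. No source used here gives the duration of the DMSO exposure. The labels number 3 biosamples in each group and do not tie them to separate cultures. The p-values therefore rest on the spread between these libraries, and that spread may be technical.

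Both lines are established human acute myeloid leukaemia lines with an internal tandem duplication in FLT3 and a KMT2A fusion. All 4 groups thus carry a lesion of each kind. The fusion partner and the FLT3 alleles need not be the same in both lines and were not compared here. The comparison is of MV411 with MOLM13, and a difference between them is a difference between 2 lines, not between 2 genotypes. FLT3 is a receptor tyrosine kinase of early blood cells, and the duplication keeps it active without ligand. Active FLT3 feeds the STAT5, RAS-ERK and PI3-kinase-AKT pathways, which sustain growth, entry into the cell cycle and survival, and AKT holds the FOXO transcription factors out of the nucleus. SGI-7079 is a small molecule known as an inhibitor of the receptor kinase AXL, and the submitters study it as an inhibitor of FLT3.

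The libraries held 52352252 to 61862017 counts in genes. Of 12 myeloid markers, 11 stood at 5 CPM (counts scaled to equal library size) or more in the DMSO groups of both lines, and CD14, which marks mature monocytes, was near 0 at 0.234 and 0.236 CPM. The KMT2A programme genes HOXA9, HOXA10, MEIS1 and FLT3 were all above 5 CPM in every group. Markers of erythroid cells summed to at most 0.186 CPM in any library, and those of fibroblasts to at most 2.07 CPM. Markers of T cells summed to at most 6.66 CPM and those of epithelium to at most 11.7 CPM, both in MOLM13. Of these, TRAC stood at 5.66 CPM and KRT18 at 8.2 CPM in MOLM13 DMSO. PAX5, a B cell factor, stood at 15.1 CPM in MOLM13 DMSO and 0.54 CPM in MV411 DMSO, and ITGA2B, a megakaryocyte integrin, at 11.5 CPM in MV411 DMSO and at 0 in MOLM13 DMSO. None of the 7 measured markers of B cells, T cells, fibroblasts or epithelium on the gene lists below passed the threshold for a difference.

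In the text a gene was higher or lower in MV411 where its difference of effects had an adjusted p under 0.05, and was called where the difference was also over 1 on the log2 scale. Higher means that, on the log2 scale, SGI-7079 raised the gene more, or lowered it less, in MV411 than in MOLM13. At adjusted p alone 1898 genes (8.85%) were higher in MV411 and 2530 (11.8%) were lower. With the fold threshold 384 genes (1.79%) were called higher and 387 (1.81%) were called lower. Within the lines, 4971 genes (23.2%) rose in MOLM13 and 5830 (27.2%) in MV411, and 5052 (23.6%) and 5205 (24.3%) fell.

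The balance of higher against lower depended on how the libraries were scaled to each other. The scaling factors are computed against a reference library, here MOLM13 DMSO replicate 2, and an MV411 library as the reference moved every difference by -0.08 to -0.04. With MV411 DMSO replicate 3 as the reference, a choice made after seeing the data, 1390 genes were higher and 3446 lower at adjusted p alone, or 28.7% higher against 42.9% above, and 340 were called higher and 475 lower. The median difference of all genes tested was -0.01 and became -0.09. When 1 of 8 libraries was left out (any MOLM13 library, or replicate 1 of either MV411 group) the number higher at adjusted p alone was 1200 to 1245. Small differences, within about 0.1, therefore have no firm sign, and differences are to be read against that shift.

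Among genes of moderate or high level the effects in MV411 were larger. Among 11224 genes with a mean of at least 5 CPM, the log2 fold changes had a standard deviation of 0.622 in MOLM13 and 0.746 in MV411, a ratio of 1.20, and 62.8% of genes moved farther in MV411. Across these genes the 2 sets of fold changes, which share no library, had a Pearson correlation of 0.772, a description over genes that are not independent replicates. Over all 21438 tested genes, low ones included, the standard deviations were 1.253 and 1.2528, the correlation was 0.483 and 58.1% moved farther in MV411. Of the 245 called genes with at least 5 CPM in the higher group of each line, 137 moved in the same direction in both lines and farther in MV411, 34 of them higher and 103 lower. A further 20 moved in the same direction and farther in MOLM13, 56 passed the threshold in MV411 and not in MOLM13, 11 in MOLM13 and not in MV411, and 21 moved in opposite directions. Over all 771 called genes, low ones included, the same classes held 199, 71, 276, 152 and 68 genes, with 5 past the threshold in neither line. Among the 6120 tested genes under 0.5 CPM in both groups of a line, 108 were called higher and 88 lower.

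**Figure D1:**
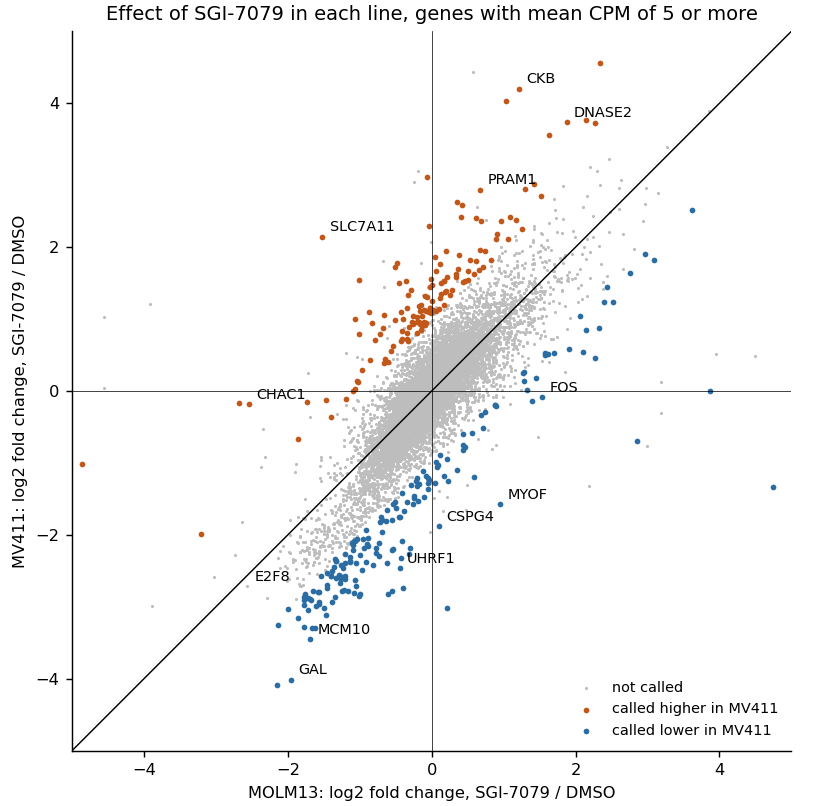
Log2 fold change of SGI-7079 against DMSO in MOLM13 (x axis) and MV411 (y axis) for 11224 genes with a mean of at least 5 CPM; the diagonal is an equal effect, coloured points are called genes, and 10 genes lie outside the axes. Most called genes lower in MV411 lie in the lower left, where both lines fell and MV411 fell farther.

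SLC7A11 had the largest difference among the genes named by the size of their difference. It encodes the cystine transporter xCT, which brings in cystine for glutathione synthesis (ENSG00000151012, chromosome 4, 138164097 to 138242349, hg38). It stood at 41.8, 38.2 and 32.2 CPM in MOLM13 DMSO, 13.6, 12 and 13.5 in MOLM13 SGI-7079, 15, 14 and 10.9 in MV411 DMSO and 54.2, 59 and 63.6 in MV411 SGI-7079. The gene fell in MOLM13 and rose in MV411, and treated and control libraries did not overlap in either line. On the log2 scale it changed by -1.52 ± 0.12 (MOLM13) and 2.15 ± 0.12 (MV411), a difference of 3.67 ± 0.17 (adjusted p = 1.97e-08). The 95% interval of the difference ran from 3.30 to 4.04.

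CKB, the brain-type creatine kinase, which buffers ATP (chromosome 14, 103519667 to 103522830), was next. It stood at 2.56, 3.98 and 3.01 CPM in MOLM13 DMSO, 7.56, 7.08 and 7.61 in MOLM13 SGI-7079, 0.875, 1.49 and 1.41 in MV411 DMSO and 22.8, 21.7 and 25.1 in MV411 SGI-7079. CKB rose in both lines, and it rose from the lower control level to the higher treated level in MV411. Its fold changes were 1.22 ± 0.19 in MOLM13 and 4.20 ± 0.21 in MV411, a difference of 2.98 ± 0.27 (adjusted p = 5.13e-06). DNASE2, the acid nuclease of lysosomes, rose in the same uneven way, from 8.78 to 32.2 CPM (MOLM13) and from 2.61 to 34.9 CPM (MV411), with a difference of 1.86 ± 0.20 (adjusted p = 1.78e-05).

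PRAM1, an adaptor protein of myeloid cells (chromosome 19, 8490056 to 8502640), stood at 19.9, 20.6 and 22 CPM in MOLM13 DMSO, 30.9, 34.7 and 34.4 in MOLM13 SGI-7079, 4.81, 4.33 and 4.63 in MV411 DMSO and 31.3, 30.6 and 34 in MV411 SGI-7079. Its control level was lower in MV411 and its treated level was about the same in both lines. Its difference was 2.12 ± 0.11 (adjusted p = 4.05e-08). FCER2, the low-affinity IgE receptor CD23, fell in MOLM13 (-0.35 ± 0.10) and rose in MV411 (1.53 ± 0.10), a difference of 1.88 ± 0.15 (adjusted p = 1.45e-06). The MOLM13 fall lost its call under upper-quartile scaling and without MOLM13 SGI-7079 replicate 2. PPM1M, a protein phosphatase, had a difference of 2.17 ± 0.14, KIAA0513 of 2.01 ± 0.23, MOB3B, a member of the MOB family of kinase regulators, of 1.79 ± 0.21, and SPMIP4 of 1.74 ± 0.27, with adjusted p of 2.83e-07, 3.28e-05, 4.61e-05 and 4.95e-04. SPMIP4 stood at 0.20 ± 0.19 in MOLM13, which did not pass the threshold (adjusted p = 0.439), and rose by 1.94 ± 0.20 in MV411.

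Of the 10 genes named as lower in MV411, 7 fell in both lines and fell farther in MV411. UHRF1, which carries DNA methylation through replication (chromosome 19, 4903080 to 4962154), stood at 431, 418 and 437 CPM in MOLM13 DMSO, 317, 309 and 321 in MOLM13 SGI-7079, 422, 412 and 440.0 in MV411 DMSO and 83.5, 78.5 and 69.5 in MV411 SGI-7079. The control groups were alike, and the treated MV411 libraries were far below the treated MOLM13 libraries. Its fold changes were -0.44 ± 0.05 and -2.46 ± 0.06, a difference of -2.02 ± 0.07 (adjusted p = 2.29e-09). E2F1, a transcription factor that switches on S-phase genes, went from 55.3 to 27.8 CPM (MOLM13) and from 75.7 to 10.7 CPM (MV411), a difference of -1.82 ± 0.08 (adjusted p = 1.71e-08). TERT, the catalytic subunit of telomerase, went from 14.3 to 7.11 CPM (MOLM13) and from 17.5 to 2.43 CPM (MV411), a difference of -1.84 ± 0.21 (adjusted p = 3.37e-05). PALS2, a scaffold protein of cell junctions, and HPDL, a mitochondrial dioxygenase-like protein, had differences of -2.35 ± 0.14 and -2.21 ± 0.29 (adjusted p = 1.89e-07 and 1.16e-04).

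GAL, the neuropeptide galanin, and ETV4, an ETS factor that ERK signalling induces, depended on the scale. GAL went from 37.2 to 9.61 CPM (MOLM13) and from 7.24 to 0.441 CPM (MV411), a difference of -2.06 ± 0.35 (adjusted p = 8.10e-04) on the log2 scale, and ETV4 from 22.2 to 5 CPM (MOLM13) and from 10.7 to 0.626 CPM (MV411), a difference of -1.94 ± 0.33 (adjusted p = 8.92e-04). In CPM both lost more in MOLM13, by 20.8 CPM for GAL and 7.13 CPM for ETV4, since their control level was higher there. Of the 245 called genes with at least 5 CPM in each line, the difference of CPM changes had the same sign as the log2 difference in 214 and not in 31. CSF1R, below, is another, with a log2 difference of -1.0003 and a gain 69 CPM larger in MV411.

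MYOF and CSPG4 fell in MV411 without a fall in MOLM13. MYOF, the membrane repair protein myoferlin (chromosome 10, 93306429 to 93482194), stood at 4.09, 4.98 and 5.11 CPM in MOLM13 DMSO, 8.4, 9.66 and 9.42 in MOLM13 SGI-7079, 6.73, 5.05 and 5.6 in MV411 DMSO and 2.04, 1.57 and 2.21 in MV411 SGI-7079. It rose in MOLM13 and fell in MV411, with no overlap between treated and control libraries in either line and a difference of -2.53 ± 0.24 (adjusted p = 8.30e-06). CSPG4, the proteoglycan NG2, a surface protein known from leukaemias with KMT2A fusions (chromosome 15, 75674322 to 75712848), stood at 123, 126 and 132 CPM in MOLM13 DMSO, 131, 138 and 140.4 in MOLM13 SGI-7079, 152, 147 and 156 in MV411 DMSO and 42.9, 41.1 and 39.5 in MV411 SGI-7079. Its MV411 libraries fell well below control, with a log2 fold change of -1.88 ± 0.04, and stood at 0.11 ± 0.04 in MOLM13 (adjusted p = 0.0453), a small rise that was lost in 8 of the 23 alternative fits. Its difference was -1.99 ± 0.06 (adjusted p = 6.47e-10).

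**Figure D2:**
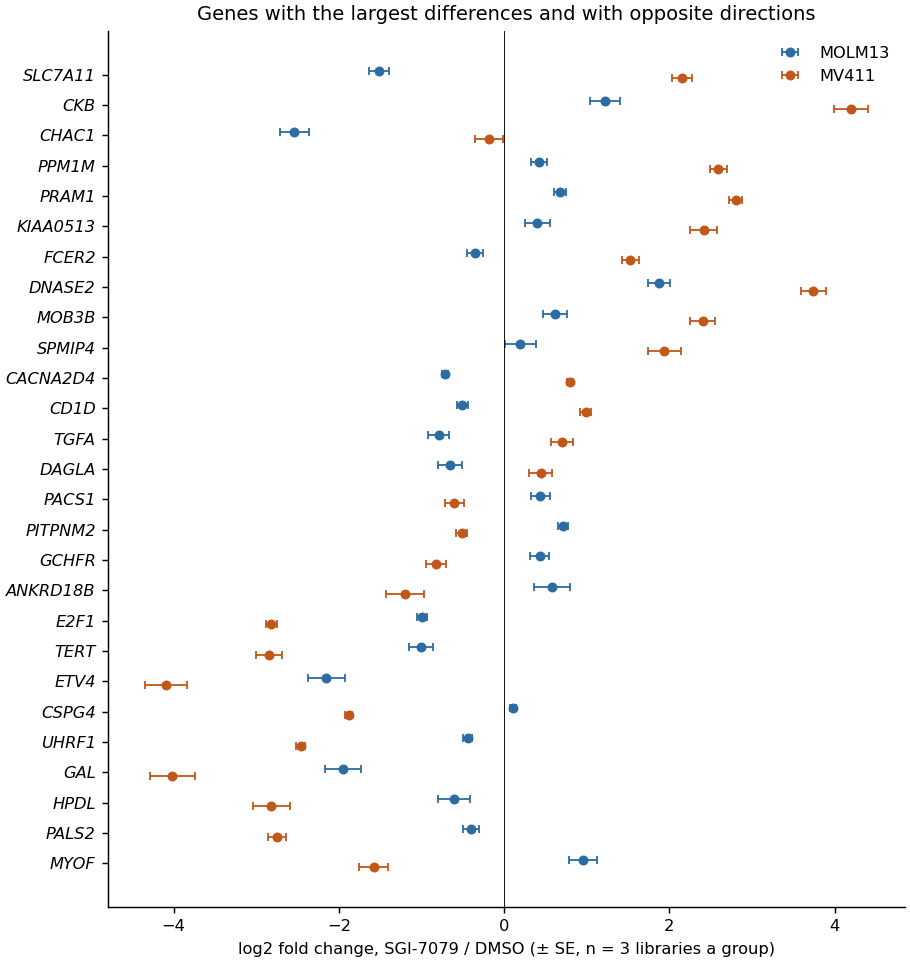
Log2 fold change of SGI-7079 against DMSO in each line (x axis, point ± SE, 3 libraries a group) for 27 genes, those with the largest differences and those with the largest opposite changes, ordered by the difference. SLC7A11 at the top fell in MOLM13 and rose in MV411, and MYOF at the bottom did the reverse.

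Opposite directions were the exception, with 68 of the 771 called genes. Beside SLC7A11, the genes named for rising in MV411 and falling in MOLM13 were CACNA2D4, CD1D, TGFA and DAGLA. CACNA2D4, an auxiliary subunit of voltage-gated calcium channels (chromosome 12, 1791963 to 1918652), stood at 141, 146 and 139.9 CPM in MOLM13 DMSO, 88.7, 86.1 and 85.5 in MOLM13 SGI-7079, 148, 146 and 159 in MV411 DMSO and 264, 256 and 265 in MV411 SGI-7079. The control groups were close together and the treated groups moved apart from them in opposite senses, without overlap. It changed by -0.72 ± 0.04 (MOLM13) and 0.79 ± 0.04 (MV411), a difference of 1.51 ± 0.05 (adjusted p = 1.40e-09). CD1D, which presents lipids to NKT cells, changed by -0.51 ± 0.07 (MOLM13) and 0.99 ± 0.07 (MV411), a difference of 1.50 ± 0.10 (adjusted p = 2.81e-07). TGFA, a ligand of the EGF receptor, changed by -0.79 ± 0.13 (MOLM13) and 0.70 ± 0.13 (MV411), a difference of 1.49 ± 0.18 (adjusted p = 7.31e-05). DAGLA, a lipase that makes the endocannabinoid 2-arachidonoylglycerol, had a difference of 1.09 ± 0.20 (adjusted p = 0.00177), which was 0.90 to 1.00 and so under the fold threshold without any 1 of 6 libraries.

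The reverse pattern, a rise in MOLM13 and a fall in MV411, named MYOF, ANKRD18B, PITPNM2, PACS1 and GCHFR. PITPNM2, a phosphatidylinositol transfer protein, stood at 61.2, 58.2 and 53.9 CPM in MOLM13 DMSO, 91.1, 98.2 and 95.3 in MOLM13 SGI-7079, 14.1, 13.1 and 14.5 in MV411 DMSO and 10.0, 10.0 and 9.04 in MV411 SGI-7079. Its level was higher in MOLM13 in all libraries, and treatment widened the gap. It changed by 0.71 ± 0.06 (MOLM13) and -0.52 ± 0.07 (MV411), a difference of -1.23 ± 0.09 (adjusted p = 7.53e-07). GCHFR, a feedback regulator of tetrahydrobiopterin synthesis, changed by 0.43 ± 0.12 (MOLM13) and -0.83 ± 0.12 (MV411), a difference of -1.26 ± 0.17 (adjusted p = 1.21e-04). PACS1, a sorting protein of the trans-Golgi network, had a difference of -1.04 ± 0.16 (adjusted p = 3.90e-04), which fell inside the fold threshold without MV411 DMSO replicate 3 or MV411 SGI-7079 replicate 2 (-0.97 and -0.93). Of the 34 named genes with opposite directions, 16 kept both signs and both calls in all 23 alternative fits and 18 lost a within-line call in at least 1. ANKRD18B was among the latter, in 10 of 23 fits.

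Among the called genes, 67 of the 245 at 5 CPM passed the threshold within 1 line and not the other, and the next genes were named for a change under 0.25 in one line. FOS, an immediate early gene of the AP-1 family (chromosome 14, 75278826 to 75282230), stood at 74.8, 78.8 and 66.1 CPM in MOLM13 DMSO, 245, 203 and 191 in MOLM13 SGI-7079, 219, 210.1 and 217 in MV411 DMSO and 236, 174 and 199.8 in MV411 SGI-7079. It rose in MOLM13 to the level that MV411 had with and without treatment. It changed by 1.54 ± 0.11 in MOLM13, with a value of -0.08 ± 0.11 in MV411 (adjusted p = 0.551), a difference of -1.62 ± 0.15 (adjusted p = 6.76e-06). APOLD1, an immediate early gene of endothelial cells, and EDA2R, a receptor of the TNF receptor family, also rose in MOLM13, by 1.45 ± 0.16 and 0.89 ± 0.10, with differences of -1.27 ± 0.22 and -1.10 ± 0.14 (adjusted p = 9.88e-04 and 8.70e-05). In MV411 THEMIS2, a signalling adaptor of B cells and macrophages, rose by 1.59 ± 0.08 and ZC3H3, a zinc finger protein of mRNA export, by 1.56 ± 0.05, while they stood at 0.21 ± 0.09 and -0.01 ± 0.05 in MOLM13. Their differences were 1.38 ± 0.12 and 1.57 ± 0.06 (adjusted p = 3.59e-06 and 6.07e-09). SFXN2, a mitochondrial carrier of the sideroflexin family, fell by 1.48 ± 0.13 in MV411, a difference of -1.24 ± 0.19 (adjusted p = 3.41e-04). NEUROG3, a neurogenic transcription factor, fell by 1.09 ± 0.18 in MOLM13, and its difference of 1.10 ± 0.25 (adjusted p = 0.00586) was 0.87 to 0.97 without any 1 of 4 libraries.

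No source used here says how reads on overlapping genes were assigned. Of the 42 genes named by size, direction or likeness, 8 overlap another gene of the table that reached at least 20% of their own CPM. They are ANKRD18B, APOLD1, ETV4, GCHFR, MOB3B, MS4A4E, NEUROG3 and PPM1M, and part of their counts may belong to the other gene.

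Gene lists for the pathways of FLT3 signalling and for blood cells were then read against the background of all genes. Members were counted where they reached 0.5 CPM in the higher group of each line and no group was at 0 counts, which held for 15291 genes. Of those, 1785 (11.7%) were higher in MV411 and 2434 (15.9%) lower, with a median difference of -0.02. By their median differences, among lists with at least 8 measured members, those farthest from that background were DNA replication and the p53 targets on the lower side, and MHC class II and the interferon-stimulated genes on the higher side. Among the 10685 tested genes with at least 5 CPM in the higher group of each line, 1549 were higher and 2249 lower. Both shares are larger than those of the 15291 genes, and lists of well expressed genes are to be read against them.

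**Figure D3:**
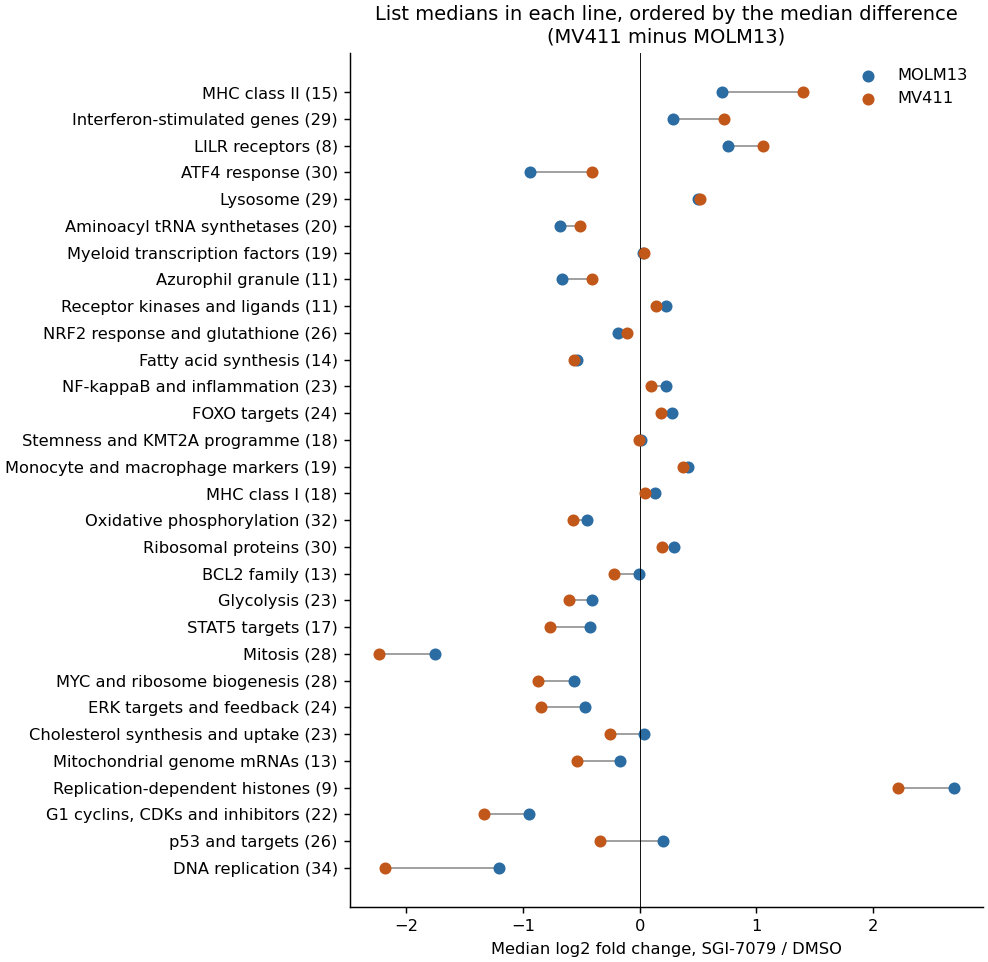
Median log2 fold change of SGI-7079 against DMSO in MOLM13 and MV411 (x axis) for 30 gene lists, with the number of measured members in brackets, ordered by the median difference. DNA replication is at the bottom with medians of -1.20 and -2.18, and MHC class II at the top with 0.71 and 1.40.

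Genes of DNA replication fell in both lines and fell farther in MV411. All 34 listed genes were measured and all 34 fell in each line. In the difference 33 were lower in MV411 and 1 was higher, 19 of the 33 past the fold threshold, with a median of -1.07 and a range of -1.77 to 0.20. Under the other scalings and tests the median was -1.15 to -1.04 and 33 stayed the count of lower genes. In bulk RNA, fewer cells in S phase and less of these mRNAs per cell cannot be told apart.

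MCM6, a subunit of the helicase that opens DNA at origins (chromosome 2, 135839626 to 135876443), stood at 292, 285 and 289 CPM in MOLM13 DMSO, 139, 136 and 143 in MOLM13 SGI-7079, 365, 358 and 375 in MV411 DMSO and 70.9, 70.0 and 69.3 in MV411 SGI-7079. It started higher and ended lower in MV411, and the spread within each group was small against the changes. It changed by -1.05 ± 0.03 (MOLM13) and -2.39 ± 0.03 (MV411), a difference of -1.33 ± 0.04 (adjusted p = 8.27e-10). MCM10, which helps to start the helicase, had the largest difference of the list at -1.77 ± 0.06 (adjusted p = 2.29e-09), from 91 to 28.3 CPM (MOLM13) and from 73.4 to 6.71 CPM (MV411). MCM2 and MCM4, other helicase subunits, had differences of -1.47 ± 0.05 and -1.41 ± 0.05. CDC6, which loads the helicase, changed by -1.66 ± 0.05 (MOLM13) and -3.29 ± 0.05 (MV411), a difference of -1.63 ± 0.07 (adjusted p = 6.07e-09). CDC45 and GINS2, which complete the active helicase, had differences of -1.66 ± 0.11 and -1.73 ± 0.13. At the other end, RRM1, the large subunit of ribonucleotide reductase, had -0.30 ± 0.04 against -1.04 ± 0.06 for RRM2, the small subunit. ORC1, the origin recognition subunit, had -0.31 ± 0.09. CDT1, a licensing factor that is degraded after origins fire, was the exception, at 0.20 ± 0.05 (adjusted p = 0.0169), and this small value lost its call in some of the alternatives.

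The promoters of MCM6, E2F1 and CDC6 are shown as examples of windows that hold letters of an E2F site. They are RefSeq windows of GRCh38.p14, from 250 bases before to 50 after the start of the gene and read along the gene's own strand, and the capitals mark TTTNGCGC or its reverse complement GCGCNAAA, letters of an E2F site. They are MCM6 (chr2:135876394-135876693, minus strand), E2F1 (chr20:33686336-33686635, minus strand) and CDC6 (chr17:40287629-40287928, plus strand).
MCM6: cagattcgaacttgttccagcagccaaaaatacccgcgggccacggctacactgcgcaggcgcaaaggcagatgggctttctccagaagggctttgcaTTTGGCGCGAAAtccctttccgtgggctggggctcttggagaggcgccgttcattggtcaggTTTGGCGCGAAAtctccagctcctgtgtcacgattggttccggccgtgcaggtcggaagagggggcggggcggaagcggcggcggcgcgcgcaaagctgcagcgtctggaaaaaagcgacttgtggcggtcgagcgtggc
E2F1: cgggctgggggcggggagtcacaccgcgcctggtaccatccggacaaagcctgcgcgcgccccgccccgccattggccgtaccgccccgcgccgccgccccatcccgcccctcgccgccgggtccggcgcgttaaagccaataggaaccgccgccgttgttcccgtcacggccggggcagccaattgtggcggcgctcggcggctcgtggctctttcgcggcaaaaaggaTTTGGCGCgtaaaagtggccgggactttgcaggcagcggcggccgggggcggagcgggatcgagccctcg
CDC6: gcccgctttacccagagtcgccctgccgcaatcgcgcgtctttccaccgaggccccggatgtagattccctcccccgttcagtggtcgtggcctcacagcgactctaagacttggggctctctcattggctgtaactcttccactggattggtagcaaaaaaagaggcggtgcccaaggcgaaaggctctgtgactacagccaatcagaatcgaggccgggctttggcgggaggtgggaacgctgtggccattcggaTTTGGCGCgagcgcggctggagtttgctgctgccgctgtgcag
On both strands, 593 of 27305 genes with a promoter window (2.17%) held the letters, and 13 of 29 replication genes with a window (44.8%) held them. MCM6 held 4 matches, which form 2 overlapping pairs, and E2F1 and CDC6 held 1 each. Among mitosis genes 1 of 24 did (4.17%). The windows shown were chosen among those with a match. MCM10, GINS2 and CDC45, which had the largest differences of the list, held 0 matches, and CDT1, which was higher in MV411, held 1. A match describes the window and is not a measured binding site. The share of 44.8% describes the list and was not tested against the differences.

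Genes of mitosis fell in both lines, and 17 of 28 fell farther in MV411. All 28 listed genes fell in each line, with medians of -1.75 and -2.23. In the difference 17 were lower in MV411, 0 were higher and 11 did not pass, with a median of -0.38, and only SPC25 passed the fold threshold. AURKB, a kinase of the chromosomal passenger complex, had a difference of -0.95 ± 0.10 (adjusted p = 2.62e-05), BUB1B, a spindle checkpoint kinase, -0.73 ± 0.07 (adjusted p = 6.46e-06), TPX2, a spindle assembly factor, -0.55 ± 0.05 (adjusted p = 4.68e-06), and CDK1, the kinase of mitotic entry, -0.63 ± 0.07 (adjusted p = 3.95e-05). In contrast CENPE, KIF11 and NDC80, which act in chromosome movement and attachment, had differences of 0.01, -0.02 and -0.09, with 95% intervals of -0.42 to 0.44, -0.22 to 0.18 and -0.37 to 0.20. Replication and mitosis genes thus reached similar falls in MV411 (medians of -2.18 and -2.23) and not in MOLM13 (-1.20 and -1.75), a comparison of medians that was not tested.

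Of 22 measured G1 cyclins, kinases, inhibitors and E2F factors, 13 were lower in MV411 and 2 higher, with a median of -0.48. E2F1, E2F2, E2F7 and MYBL2, transcription factors of the cell cycle, were the 4 called lower, with differences of -1.82 ± 0.08, -1.29 ± 0.16, -1.17 ± 0.12 and -1.50 ± 0.08. CDK4, the partner of D cyclins, changed by -0.55 ± 0.05 (MOLM13) and -1.40 ± 0.05 (MV411), a difference of -0.85 ± 0.06 (adjusted p = 1.18e-06). The 2 exceptions were CCND2, cyclin D2, at 0.48 ± 0.08, and CDKN1B, the inhibitor p27, at 0.35 ± 0.06 (adjusted p = 6.86e-04). E2F8, a repressor of the same family, did not follow E2F1: it changed by -2.57 ± 0.08 and -2.71 ± 0.09, a difference of -0.14 with an interval of -0.40 to 0.11.

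Genes of MYC and ribosome biogenesis fell a little farther in MV411. Of 28 measured members 26 fell in MOLM13, 23 were lower in the difference and 3 higher, with a median of -0.38 and none past the fold threshold. MYC, the growth transcription factor, went from 812 to 714 CPM (MOLM13) and from 602 to 354 CPM (MV411), a difference of -0.58 ± 0.04 (adjusted p = 9.77e-07). PAICS, an enzyme of purine synthesis, changed by -0.79 ± 0.04 (MOLM13) and -1.66 ± 0.04 (MV411), a difference of -0.87 ± 0.05 (adjusted p = 1.19e-07). MRTO4, a ribosome assembly factor, had -0.74 ± 0.06 and HSPE1, a mitochondrial chaperonin, -0.86 ± 0.07. The 3 higher genes were NPM1, nucleophosmin, NOB1, a nuclease of ribosome maturation, and ODC1, the first enzyme of polyamine synthesis, at 0.27, 0.34 and 0.43. Of 30 ribosomal proteins 12 were lower and 1 higher, with a median of -0.12, which is close to the shift that the scaling can make. The lower count was 7 without MV411 DMSO replicate 3 or MV411 SGI-7079 replicate 2 or 3, and 19 to 22 without MOLM13 DMSO replicate 1, MOLM13 SGI-7079 replicate 2, MV411 DMSO replicate 1 or 2, or MV411 SGI-7079 replicate 1.

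**Figure D4:**
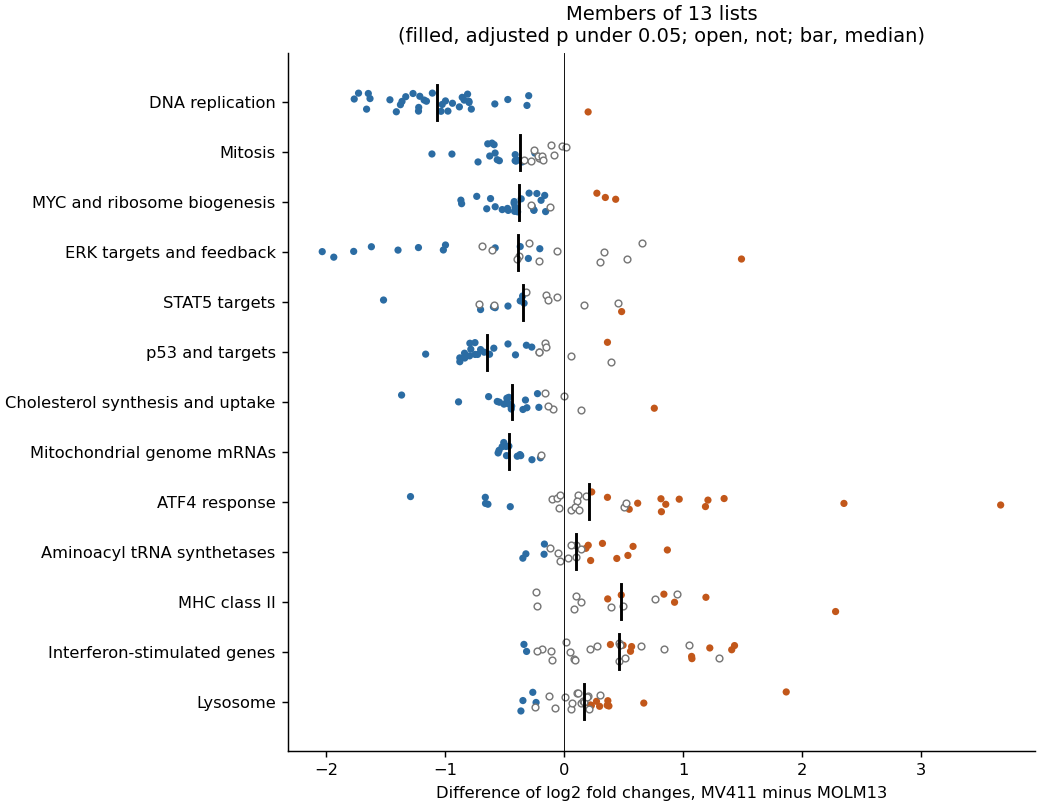
Difference of log2 fold changes, MV411 minus MOLM13 (x axis), for each measured member of 13 lists. Filled points passed adjusted p under 0.05, open points did not, and bars are list medians; the replication genes lie to the left of 0 apart from CDT1, and the ATF4 list spreads from -1.29 to 3.67.

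The amino acid response split. ATF4 is a transcription factor that raises amino acid transporters, synthetic enzymes and tRNA synthetases when amino acids run short or proteins misfold. Of 30 measured genes of its response, 24 fell and 0 rose in MOLM13, against 17 and 4 in MV411. In the difference 13 were higher in MV411, 5 of them past the fold threshold, and 5 were lower, with a median of 0.20. Without single libraries that median was 0.09 to 0.21, and 9 to 12 were higher and 5 to 6 lower. ATF4 itself (chromosome 22, 39519695 to 39522683) stood at 498, 488 and 499 CPM in MOLM13 DMSO, 281, 276 and 293 in MOLM13 SGI-7079, 234, 213 and 234 in MV411 DMSO and 237, 226 and 222 in MV411 SGI-7079. It fell in MOLM13, and in MV411 control libraries were already lower and overlapped the treated ones. It changed by -0.80 ± 0.04 in MOLM13, with a value of 0.01 ± 0.04 in MV411 (adjusted p = 0.855), a difference of 0.82 ± 0.06 (adjusted p = 6.25e-07).

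Among its targets CHAC1, a glutathione-degrading enzyme (chromosome 15, 40952962 to 40956512), stood at 16.3, 15.6 and 17.3 CPM in MOLM13 DMSO, 3.08, 3.29 and 2.1 in MOLM13 SGI-7079, 6.73, 4.83 and 6.59 in MV411 DMSO and 5.75, 5.11 and 5.08 in MV411 SGI-7079. It fell in MOLM13 below the MV411 level. It changed by -2.54 ± 0.18 in MOLM13, with a value of -0.19 ± 0.17 in MV411 (adjusted p = 0.394), a difference of 2.35 ± 0.25 (adjusted p = 1.75e-05). JDP2, a repressor of the AP-1 family, and ASNS, asparagine synthetase, had differences of 1.34 ± 0.27 (adjusted p = 0.00311) and 1.19 ± 0.11 (adjusted p = 5.05e-06). CTH, which makes cysteine from cystathionine, fell by 0.66 ± 0.24 in MOLM13, with a value of 0.55 ± 0.25 in MV411 (adjusted p = 0.0848), a difference of 1.21 ± 0.35 (adjusted p = 0.025). MTHFD2, a mitochondrial folate enzyme, and DDIT4, an inhibitor of mTORC1, were higher by 0.85 ± 0.05 and 0.97 ± 0.11.

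The 5 lower genes of the list included the serine synthesis enzymes. PHGDH, the first of them, changed by -1.86 ± 0.09 (MOLM13) and -3.16 ± 0.10 (MV411), a difference of -1.29 ± 0.13 (adjusted p = 1.62e-05), and PSAT1, the second, had -0.45 ± 0.07 (adjusted p = 4.21e-04). HERPUD1, of the degradation machinery of the endoplasmic reticulum, had -0.66 ± 0.06, TRIB3, a pseudokinase that restrains ATF4, -0.64 ± 0.14, and ALDH1L2, a mitochondrial folate enzyme, -0.66 ± 0.08. Leucine transporter SLC7A5 and XBP1, a factor of the unfolded protein response, fell in both lines with differences of -0.04 and -0.04 (intervals of -0.19 to 0.10 and -0.24 to 0.16).

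The promoter of CHAC1 is shown as the list member with the largest difference that has a RefSeq window (GRCh38.p14, chr15:40953221-40953520, plus strand, 250 bases before to 50 after the start), with TGATGNAA or its reverse complement TTNCATCA, letters of an ATF4 element, in capitals.
CHAC1: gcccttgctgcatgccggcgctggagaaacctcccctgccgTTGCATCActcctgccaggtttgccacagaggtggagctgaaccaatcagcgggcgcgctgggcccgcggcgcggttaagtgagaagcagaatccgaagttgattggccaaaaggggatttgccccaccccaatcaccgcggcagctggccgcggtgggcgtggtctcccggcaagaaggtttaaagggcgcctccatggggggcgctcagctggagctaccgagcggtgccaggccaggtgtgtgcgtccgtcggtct
These letters stood in 8 of 27 list members with a window (29.6%) and in 1217 of all 27305 (4.46%), and in 0 of 29 replication genes and 0 of 24 mitosis genes. The share counts list members that moved in either sense. Of the 32 genes of the list 27 matched a window, and SLC7A11 did not.

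**Figure D5:**
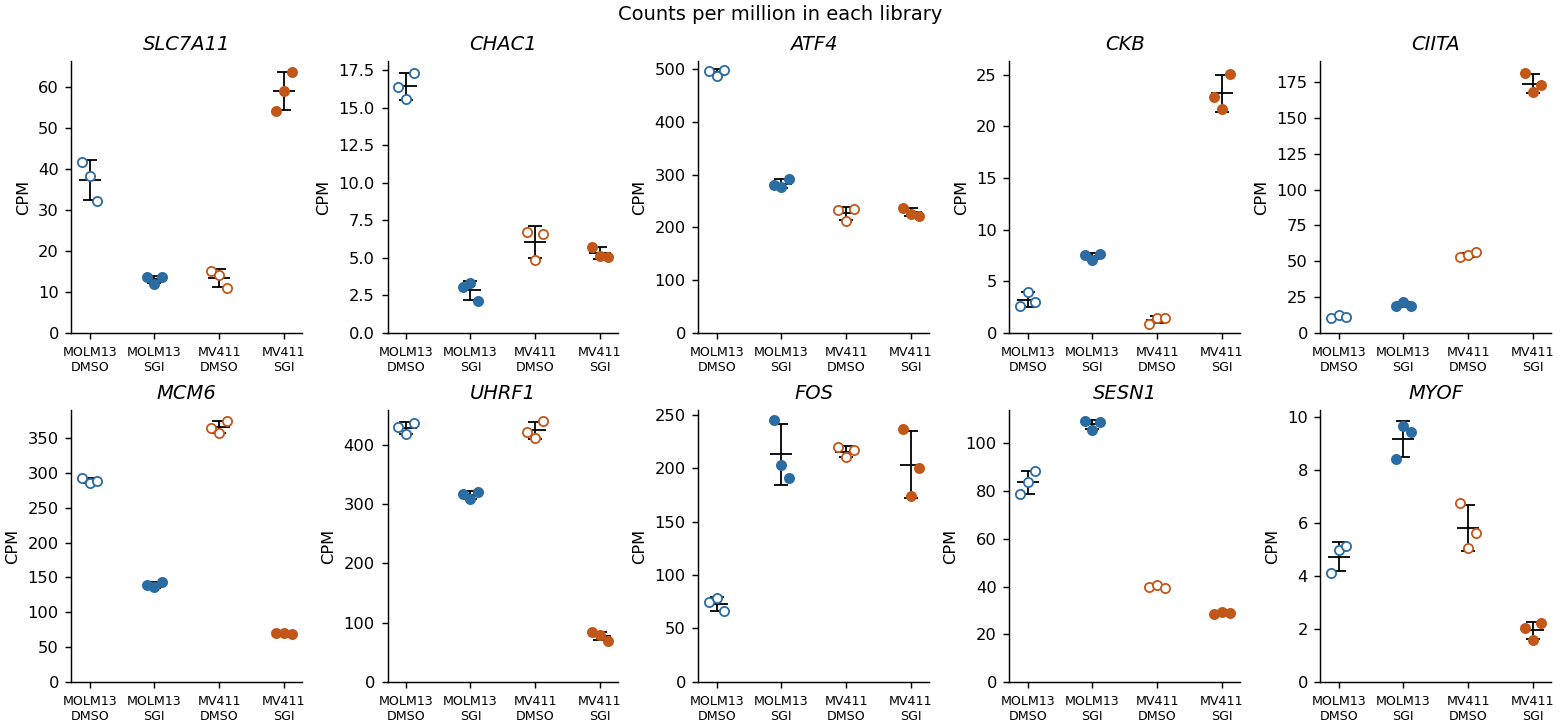
CPM in each library (points, open for DMSO and filled for SGI-7079) with group mean and SD (bars, n = 3) for 10 genes, each panel with its own axis from 0. SLC7A11 falls from 37.4 to 13 CPM in MOLM13 and rises from 13.3 to 59 in MV411, and ATF4 falls in MOLM13 alone.

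Of 20 aminoacyl tRNA synthetases, 8 were higher and 4 lower, with a median of 0.09, and the higher count was 5 without any 1 of 8 libraries (all but replicate 3 of MOLM13 SGI-7079 and, in MV411, replicate 3 of DMSO and replicates 2 and 3 of SGI-7079). The median ran from 0.02 to 0.12 under the other scalings and tests and from -0.01 to 0.10 without single libraries. CARS1, for cysteine, fell by 0.80 ± 0.05 in MOLM13, with a value of 0.07 ± 0.05 in MV411 (adjusted p = 0.293), a difference of 0.87 ± 0.07 (adjusted p = 1.76e-06). MARS1, for methionine, TARS1, for threonine, and WARS1, for tryptophan, fell in both lines and less in MV411, with differences of 0.58 ± 0.05, 0.44 ± 0.04 and 0.53 ± 0.06. FARSA and FARSB, the subunits of the phenylalanine enzyme, had -0.35 ± 0.05 and -0.32 ± 0.05.

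NRF2 is the transcription factor of the antioxidant response, and SLC7A11 is on its list as well. Of 26 measured members 8 were higher and 5 lower, with a median of 0.05 that is inside the scaling shift. The lower count was 8 or 9 without replicate 3 of MOLM13 DMSO or replicate 2 of MOLM13 SGI-7079 or MV411 DMSO. The higher ones included enzymes of the pentose phosphate pathway and of NADPH supply. TKT, transketolase, stood at 529.6, 520.0 and 547 CPM in MOLM13 DMSO, 482, 485 and 502 in MOLM13 SGI-7079, 735, 725 and 754 in MV411 DMSO and 1176, 1135 and 1104 in MV411 SGI-7079. It rose in MV411 in all 3 libraries and barely moved in MOLM13, where the fall of -0.12 was lost in 3 alternatives. Its difference was 0.75 ± 0.04 (adjusted p = 1.62e-07). PGD, of the pentose phosphate pathway, changed by -0.20 ± 0.03 (MOLM13) and 0.35 ± 0.03 (MV411), a difference of 0.54 ± 0.04 (adjusted p = 2.46e-06). ME1, malic enzyme, HMOX1, which degrades haem, and GCLC, the catalytic subunit of glutathione synthesis, had differences of 1.18 ± 0.20, 0.81 ± 0.19 and 0.71 ± 0.08. GPX4, which removes lipid peroxides, went the other way, by 0.15 ± 0.04 (MOLM13) and -0.40 ± 0.04 (MV411), a difference of -0.55 ± 0.05 (adjusted p = 9.30e-06). NQO1 and GCLM, textbook NRF2 targets, had differences of -0.11 and 0.05 with intervals of -0.27 to 0.05 and -0.21 to 0.31.

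On the lists of ERK and STAT5 targets more members were lower than higher in MV411 in the difference of effects. The activity of FLT3 and of these pathways was not measured. A lower member did not always fall farther in MV411, as FOS, above, rose in MOLM13 and did not pass the threshold in MV411. Of 24 measured targets and feedback genes of ERK, 12 were lower, 7 of them past the fold threshold, and 1 was higher, with a median of -0.39. EGR1, an immediate early transcription factor, stood at 60.7, 79.2 and 61.5 CPM in MOLM13 DMSO, 49.8, 49.6 and 31.3 in MOLM13 SGI-7079, 80.3, 67.8 and 78.3 in MV411 DMSO and 15.6, 11.9 and 15.5 in MV411 SGI-7079. It fell in both lines, to the lowest levels in MV411. Its difference was -1.77 ± 0.24 (adjusted p = 1.32e-04). DUSP6, an ERK phosphatase, went from 39.4 to 28.4 CPM (MOLM13) and from 67.7 to 24.4 CPM (MV411), a difference of -0.9995 ± 0.11 (adjusted p = 3.45e-05) that was just short of the fold threshold and passed it without any 1 of 10 libraries, MV411 SGI-7079 replicates 2 and 3 being the others. DUSP5 and DUSP2, other phosphatases of MAP kinases, had -1.40 ± 0.25 and -1.23 ± 0.12, and FOSL1, of the AP-1 family, -1.02 ± 0.15. FOSB, of the same family, rose in MOLM13 and fell in MV411 at low levels, from 1.85 to 3.8 CPM (MOLM13) and from 4.94 to 2.47 CPM (MV411), a difference of -2.04 ± 0.32 (adjusted p = 4.90e-04). PHLDA1 was the higher member, at 1.49 ± 0.22 (adjusted p = 3.01e-04). The Sprouty inhibitors SPRY2 and SPRY4 fell in both lines, with differences of -0.61 ± 0.29 and -0.38 ± 0.28 that did not pass (adjusted p = 0.177 and 0.402).

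Of 17 measured STAT5 targets 8 were lower and 1 was higher, with a median of -0.35. PIM1, a survival kinase (chromosome 6, 37170152 to 37175428), stood at 17.9, 22.5 and 19.7 CPM in MOLM13 DMSO, 9.94, 10.7 and 10.1 in MOLM13 SGI-7079, 92, 90.8 and 92.6 in MV411 DMSO and 15.6, 17.7 and 15.8 in MV411 SGI-7079. MV411 had the far higher level in DMSO, and the treated groups stood closer together. It changed by -0.96 ± 0.08 (MOLM13) and -2.49 ± 0.08 (MV411), a difference of -1.52 ± 0.11 (adjusted p = 8.21e-07). SOCS2, a feedback inhibitor of cytokine receptors, fell by 0.69 ± 0.05 in MV411, with a value of -0.10 ± 0.05 in MOLM13 (adjusted p = 0.11), a difference of -0.60 ± 0.07 (adjusted p = 3.88e-05). CISH, of the same family, had -0.47 ± 0.08, and CCND2 was the higher member. Of 24 FOXO targets 2 were higher and 5 lower, a share near the background, with a median of -0.02. The lower count was 8 without MV411 SGI-7079 replicate 1, and the higher count 1 without replicate 3 of MOLM13 DMSO or replicate 2 of MOLM13 SGI-7079 or MV411 DMSO.

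Of 11 measured receptor kinases and ligands, 1 was higher (9.09%, or 2 genes without MV411 DMSO replicate 3) and 3 lower (27.3%). FLT3 itself (chromosome 13, 28003274 to 28100592) stood at 328, 328 and 326 CPM in MOLM13 DMSO, 624, 625 and 626 in MOLM13 SGI-7079, 391, 377 and 386 in MV411 DMSO and 491, 493 and 498 in MV411 SGI-7079. It rose in every treated library of both lines, and more in MOLM13. It changed by 0.93 ± 0.02 (MOLM13) and 0.36 ± 0.02 (MV411), a difference of -0.57 ± 0.03 (adjusted p = 1.27e-07). CSF1R, the macrophage growth factor receptor, rose from 5.84 to 31.7 CPM (MOLM13) and from 55.4 to 150.2 CPM (MV411), a difference of -1.0003 ± 0.08 (adjusted p = 1.14e-06) that fell inside the fold threshold without MV411 DMSO replicate 3 (-0.999) or MV411 SGI-7079 replicate 2 (-0.991). GAS6, which binds AXL, moved by -0.24 ± 0.03 (MOLM13) and -1.46 ± 0.03 (MV411), a difference of -1.22 ± 0.05 (adjusted p = 4.59e-09), while AXL was higher at 0.65 ± 0.13 (adjusted p = 0.00315).

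Most targets of p53, the transcription factor of the DNA damage response, had a lower difference in MV411, and 5 rose in MOLM13 and fell in MV411. Of 26 measured members 19 were lower in MV411 and 1 higher, with a median of -0.65. Within the lines 12 rose and 5 fell in MOLM13, against 6 and 16 in MV411, with medians of 0.20 and -0.34. SESN1, sestrin 1 (chromosome 6, 108984309 to 109094846), stood at 78.7, 84 and 88.3 CPM in MOLM13 DMSO, 109, 106 and 109 in MOLM13 SGI-7079, 39.9, 40.8 and 39.4 in MV411 DMSO and 28.5, 29.5 and 28.8 in MV411 SGI-7079. All 3 treated libraries were above control in MOLM13 and all 3 below in MV411. It changed by 0.37 ± 0.04 (MOLM13) and -0.47 ± 0.04 (MV411), a difference of -0.84 ± 0.06 (adjusted p = 6.96e-07). Opposite directions also held for DDB2, of DNA repair, TNFRSF10B, a TRAIL receptor, MDM2, which degrades p53, and PHLDA3, an AKT inhibitor, with differences of -0.75 ± 0.05, -0.79 ± 0.06, -0.63 ± 0.08 and -0.75 ± 0.07. Of these 5 genes, MDM2 lost its MV411 fall under 2 alternatives (total counts and FPKM), and the other 4 kept both calls in all 23.

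FAS, a death receptor, had the largest difference of the p53 list at -1.17 ± 0.16 (adjusted p = 1.54e-04), and AEN, a nuclease of apoptosis, fell in both lines with a difference of -0.88 ± 0.06 (adjusted p = 7.84e-07). TP53INP1, a stress protein, rose in both lines, by 1.85 ± 0.08 and 1.18 ± 0.08. SESN2, which is on the ATF4 list too, was the higher member at 0.36 ± 0.11. Of 13 genes of the BCL2 family 5 were lower and 1 higher. BMF, a pro-apoptotic member that the cytoskeleton can hold, rose from 15.5 to 98 CPM (MOLM13) and from 66.4 to 215 CPM (MV411), a difference of -0.97 ± 0.08 (adjusted p = 1.60e-06). BAX, which permeabilises mitochondria, stood at 0.16 ± 0.07 in MOLM13 (adjusted p = 0.0635) and fell by 0.63 ± 0.07 in MV411, a difference of -0.80 ± 0.09 (adjusted p = 5.26e-05). BBC3, the p53 target PUMA, and BCL2 itself had -0.59 ± 0.10 and -0.40 ± 0.05.

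Most genes of cholesterol synthesis had a lower difference of effects in MV411. Within the lines 7 fell and 5 rose in MOLM13, with a median of 0.04, against 12 and 4 in MV411, with -0.25. Of 23 measured genes of synthesis and uptake 17 were lower, 1 was higher and 5 did not pass, with a median of -0.44. DHCR7, the last enzyme of one branch (chromosome 11, 71428193 to 71452868), stood at 60.0, 58.9 and 58.4 CPM in MOLM13 DMSO, 52.2, 52.2 and 61 in MOLM13 SGI-7079, 14.8, 13.7 and 14 in MV411 DMSO and 6.11, 4.13 and 5.08 in MV411 SGI-7079. MOLM13 libraries overlapped between treatment and control, and MV411 libraries did not. It stood at -0.10 ± 0.10 in MOLM13 (adjusted p = 0.444) and changed by -1.47 ± 0.11 in MV411, a difference of -1.37 ± 0.15 (adjusted p = 2.45e-05). SQLE, squalene epoxidase, had -0.89 ± 0.06 (adjusted p = 6.13e-07). INSIG1, which holds the sterol sensor in the endoplasmic reticulum, was the exception. It stood at 100.1, 106 and 101 CPM in MOLM13 DMSO, 79.1, 75.2 and 75.8 in MOLM13 SGI-7079, 108, 111 and 116 in MV411 DMSO and 145, 142 and 137 in MV411 SGI-7079, changed by -0.42 ± 0.04 (MOLM13) and 0.34 ± 0.04 (MV411), and kept both calls in all 23 alternatives, with a difference of 0.76 ± 0.05 (adjusted p = 6.35e-07).

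All 13 messenger RNAs of the mitochondrial genome were measured, and 12 were lower in MV411 and 0 higher, with a median of -0.47, while 1 did not pass. MT-CO2, a subunit of cytochrome oxidase, changed by -0.28 ± 0.04 (MOLM13) and -0.83 ± 0.04 (MV411), a difference of -0.55 ± 0.05 (adjusted p = 5.67e-06). MT-ND2, a subunit of complex I, had -0.56 ± 0.04 (adjusted p = 1.69e-06). MT-ND1 and MT-ND6 rose in MOLM13 and fell in MV411, with differences of -0.37 ± 0.07 and -0.49 ± 0.09, and lost a within-line call in 4 and 5 of the 23 alternatives. These RNAs share 2 long transcripts, one from each strand, and are not independent. Of 32 nuclear genes of oxidative phosphorylation 3 were higher (9.38%) and 7 lower (21.9%), with a median of -0.11. The higher count was 5 without MV411 DMSO replicate 3, and the lower count was 11 to 16 without any 1 of 9 libraries (in MV411 all but replicate 3 of DMSO and replicates 2 and 3 of SGI-7079, and every MOLM13 library) and 15 with MV411 DMSO replicate 3 as the scaling reference. Of 23 glycolysis genes 3 were higher and 12 lower, with a median of -0.22. LDHA, lactate dehydrogenase, had -0.46 ± 0.05, PFKP, a phosphofructokinase, -0.54 ± 0.06, and SLC16A3, a lactate exporter, 0.54 ± 0.05.

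MHC class II genes, which present antigen on monocytes and B cells, rose more in MV411. Of 15 measured members 13 rose in MV411 and 9 in MOLM13. In the difference 6 were higher, 0 lower and 9 did not pass, with a median of 0.48. Without single libraries that median was 0.26 to 0.54, and 5 to 6 were higher. CIITA, the master activator of the class (chromosome 16, 10866222 to 10943021), stood at 10.3, 12.4 and 10.8 CPM in MOLM13 DMSO, 19.1, 21.7 and 19 in MOLM13 SGI-7079, 53.2, 54.5 and 56.2 in MV411 DMSO and 181, 168 and 173 in MV411 SGI-7079. It rose in both lines from a control level that was higher in MV411. It changed by 0.84 ± 0.07 (MOLM13) and 1.67 ± 0.06 (MV411), a difference of 0.84 ± 0.09 (adjusted p = 2.85e-05). HLA-DRA, the DR alpha chain, rose from 5.63 to 12.7 CPM (MOLM13) and from 41.2 to 177 CPM (MV411), a difference of 0.93 ± 0.16 (adjusted p = 0.00108). HLA-DQB1 and HLA-DPA1, chains of DQ and DP, had 1.19 ± 0.16 (adjusted p = 1.81e-04) and 2.28 ± 0.42 (adjusted p = 0.00156), and CD74, the invariant chain, 0.36 ± 0.05 (adjusted p = 1.21e-04). HLA genes differ between people in sequence, and reads of the 2 lines may map to them unequally, which was not tested.

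Interferon-stimulated genes followed the same sense. Of 29 measured members 9 were higher, 5 past the fold threshold, 2 were lower and 18 did not pass, with a median of 0.46. Without single libraries the median was 0.22 to 0.46, and 6 to 8 were higher and 2 to 3 lower. STAT2, which carries the interferon signal, rose by 1.18 ± 0.05 and 1.73 ± 0.05, a difference of 0.56 ± 0.06 (adjusted p = 4.34e-05). OAS1 and OAS2, sensors of double-stranded RNA, had 1.41 ± 0.36 and 1.07 ± 0.17, and SAMD9L, an antiviral factor, 1.22 ± 0.19. ISG15, a ubiquitin-like protein, did not follow them, with a difference of -0.19 and an interval of -0.57 to 0.19. BST2, tetherin, and TRIM22, an antiviral ubiquitin ligase, were the lower members, at -0.32 ± 0.07 and -0.34 ± 0.05.

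Most markers of monocytes and macrophages rose, without a common sense of the difference. Of 19 measured members 14 rose and 2 fell in MOLM13, against 11 and 5 in MV411, and in the difference 3 were higher and 6 lower, with a median of -0.04. MS4A7, a membrane protein of macrophages, changed by 0.27 ± 0.04 (MOLM13) and 1.15 ± 0.04 (MV411), a difference of 0.88 ± 0.05 (adjusted p = 1.79e-07), and ITGAX, the integrin CD11c, was higher at 0.45 ± 0.08. FCGR1A, the high-affinity IgG receptor, stood at 0.01 ± 0.05 in MOLM13 (adjusted p = 0.863) and fell by 0.57 ± 0.05 in MV411, a difference of -0.58 ± 0.06 (adjusted p = 3.05e-05). S100A8, a calcium-binding protein of monocytes and neutrophils, had -1.27 ± 0.42, and ITGAM, the integrin CD11b, had -0.04 (interval -0.42 to 0.34). Of 8 measured leukocyte immunoglobulin-like receptors 2 were higher and 1 lower (2 without MV411 SGI-7079 replicate 1). LILRA2 had 0.67 ± 0.06 (adjusted p = 9.45e-06) and LILRB4 -0.44 ± 0.06 (adjusted p = 1.27e-04). LILRB3 had 3.76 ± 0.49 (adjusted p = 1.03e-04) from 0.398 to 0.767 CPM (MOLM13) and from 0.3 to 7.86 CPM (MV411), and is uncertain because genes of this family are near-identical in part and how shared reads were counted is not known. Of 29 lysosome genes 10 were higher and 4 lower, with a median of 0.16. The higher count was 5 or 6 without MOLM13 DMSO replicate 1 or 3, MOLM13 SGI-7079 replicate 1 or 2, or replicate 1 of either MV411 group. CTSD, cathepsin D, had 0.36 ± 0.04, and TPP1, a peptidase, went the other way at -0.27 ± 0.04.

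Many large effects were alike. Of 573 genes that moved by over 1 in the same direction in both lines, with at least 5 CPM in the higher group of each, 139 had a 95% interval of the difference within -0.5 to 0.5, 338 differed at adjusted p under 0.05 and 83 of these were called. The classes overlap in 31 genes, and 127 belong to neither. SERPINF1, the secreted factor PEDF (chromosome 17, 1762029 to 1777565), stood at 5.68, 6.26 and 6.09 CPM in MOLM13 DMSO, 23.8, 22.9 and 23.2 in MOLM13 SGI-7079, 37.5, 33.9 and 37.7 in MV411 DMSO and 138, 134 and 135 in MV411 SGI-7079. It rose in both lines from unequal control levels. It changed by 1.95 ± 0.06 (MOLM13) and 1.90 ± 0.05 (MV411), a difference of -0.06 with an interval of -0.21 to 0.10. MS4A4E and JAML, a leukocyte adhesion molecule, rose with differences of 0.15 and 0.03 (intervals of -0.09 to 0.39 and -0.33 to 0.39). E2F8 and NDC80, above, and PLK1, the mitotic kinase, fell alike. PLK1 fell from 156 to 35.6 CPM (MOLM13) and from 177 to 35.3 CPM (MV411), a difference of -0.20 ± 0.05 (adjusted p = 0.0142) that passed the threshold and lay within -0.5 to 0.5.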

How the data were processed

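RNA of the 12 libraries was selected with oligo(dT), strand-marked and sequenced in pairs, per the labels' protocols. The authors removed adapters, aligned reads to hg38 and counted genes with featureCounts, per the series' design text. The submitters' processing notes name HISAT2 2.2.1, StringTie 2.1.6, cutadapt 1.9, edgeR and DESeq2. The deposited table gives raw read counts and FPKM per gene and library. FPKM served only in an alternative test, limma on log2(FPKM + 0.1). All 36041 rows carry a gene name, 246 symbols stand on more than 1 row, and 35731 identifiers are in GENCODE 44.

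Counts were tested in R 4.3.3 with edgeR 4.0.16 (TMM scaling, filterByExpr with a minimum count of 10, quasi-likelihood test) in a model with 1 mean per group over the 12 libraries. Benjamini-Hochberg adjustment ran over 21438 genes. The threshold was 0.05, with an absolute log2 value over 1 for a call. Errors on log2 values are standard errors (SE), the absolute value divided by the square root of F, with 3 libraries a group. CPM is counts relative to the TMM-scaled library size. The code was tested on simulated data. No 2 replicates agreed within sampling noise.

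The gene lists and members were chosen with earlier results of these data known. Named genes were the 10 largest calls in each direction kept without any 1 library, the 5 largest opposite changes, the 3 largest with under 0.25 in the other line, the 3 most alike, and up to 4 per list with the smallest adjusted p plus any with opposite directions. Size rules required 5 CPM in the higher group of each line, a symbol and a protein-coding gene. Other list members are named to show a list's range, exceptions and textbook members, chosen after their values were seen. Some genes that these rules name are not reported here. Alternatives were other scalings and filters, limma-voom 3.58.1, DESeq2 1.42.0, a replicate block and leaving out each library. P-values could not separate biological from technical spread, as the labels do not say that replicates were separate cultures.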

Additional observations from a re-analysis of the deposited data

Results flagged for a closer look

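The 2 lines' responses differed by a test of the difference itself in 384 genes called higher and 387 called lower in MV411. Among the named genes, 34 rose in one line and fell in the other at adjusted p under 0.05 in each line, with a difference that also passed. The values below are differences of log2 fold changes, MV411 minus MOLM13, and the groups of 3 libraries are too small for a check of single outlying libraries.

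Genes that fell in MOLM13 and rose in MV411 were SLC7A11 (3.67), the prostaglandin enzyme PTGS2 (1.98), the granule protein BPI (1.93), FCER2 (1.88), CACNA2D4 (1.51), CD1D (1.50), TGFA (1.49) and DAGLA (1.09). Smaller differences of this kind were those of INSIG1 (0.76), TKT (0.75), the cathepsin CTSH (0.67), PGD (0.54), the granule protein AZU1 (0.53), the transcription factor RUNX1 (0.37), CDKN1B (0.35) and the chromatin regulator KMT2A (0.30). PTGS2 and BPI stood below 5 CPM in every group.

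Genes that rose in MOLM13 and fell in MV411 were MYOF (-2.53), FOSB (-2.04), CSPG4 (-1.99), ANKRD18B (-1.78), GCHFR (-1.26), PITPNM2 (-1.23) and PACS1 (-1.04). They included the p53 targets SESN1 (-0.84), TNFRSF10B (-0.79), DDB2 (-0.75), PHLDA3 (-0.75) and MDM2 (-0.63). The others were GPX4 (-0.55), MT-ND6 (-0.49), the haematopoietic factor LMO2 (-0.38), MT-ND1 (-0.37), the monocyte factor IRF8 (-0.31) and the hexokinase HK2 (-0.25).

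SLC7A11, CACNA2D4, CD1D, TGFA, INSIG1, PGD, MYOF, FOSB, GCHFR, PITPNM2, PACS1, SESN1, TNFRSF10B, DDB2, PHLDA3 and GPX4 kept both directions and both calls in each of the 23 alternative fits. The other 18 lost a within-line call in at least 1, most often CTSH (18 of 23), KMT2A (17), CDKN1B (13) and AZU1 (12). CTSH and KMT2A also lost the difference itself in 2 and 4 fits.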

How the results depend on the processing

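Over 167 named genes, leaving out single libraries gave the same direction and the same side of the threshold in 1972 of 2004 refits, and the other tests and scalings did in 1827 of 1837. None reversed. Genes called higher in MV411 numbered 289 to 576 and lower 321 to 475 over the tests and scalings, and 305 to 382 and 355 to 515 without single libraries. At adjusted p alone, higher genes numbered 1200 to 1789 and lower genes 2193 to 3293 without single libraries. Without single libraries the classes ranged from 48 to 63 (opposite), 179 to 222 (farther in MV411), 55 to 86 (farther in MOLM13), 243 to 282 (MV411 past the threshold alone), 134 to 209 (MOLM13 alone) and 7 to 16 (neither). Most of these fits take another library as the scaling reference, which moved the median difference to between -0.10 and -0.09.

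With no filter on low counts 1261 genes were higher at adjusted p alone, 41 called genes were opposite and 17 passed in neither line. The share of called genes that were higher was 63.2% with FPKM (576 against 336), where 28 genes moved farther in MOLM13 and 483 passed in MV411 alone. The class past the threshold in neither line held 3 genes with limma-voom, 21 with DESeq2 and 10 with MV411 DMSO replicate 3 as the scaling reference. The cause of these shifts was not tested.

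Replicate numbers showed no common pairing: deviations from the group means of same-numbered libraries correlated at -0.19 to 0.176. The highest correlation with a library of another number ran from -0.0607 to 0.194. Deviations of 3 libraries from their own mean are tied to each other, so this check cannot exclude pairing. With the replicate block, 341 genes were called higher and 352 lower, and with a block within each line 339 and 335.

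Depth was even, so the limit is at low counts: at under 0.5 CPM in both groups of a line, 108 calls were higher and 88 lower of 6120 genes. SDs and SEs rest on 3 libraries a group.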

Other observations

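Among lists not described above, genes of the azurophil granule, which stores the proteases of immature myeloid cells, split between members. Of 11 measured, 3 were higher and 4 lower in MV411. PRTN3, proteinase 3, fell in both lines, from 1378 to 872 CPM (MOLM13) and from 812 to 320.2 CPM (MV411). On the log2 scale it fell farther in MV411, a difference of -0.68 ± 0.05 (adjusted p = 8.27e-07). In CPM its loss was 13.7 larger in MOLM13. AZU1, azurocidin, the neighbour of PRTN3 on chromosome 19, had 0.53 ± 0.04 (adjusted p = 1.43e-06). ELANE, neutrophil elastase, next to PRTN3, had -0.47 ± 0.07 (adjusted p = 3.81e-04), and CTSG, cathepsin G, -0.38 ± 0.06 (adjusted p = 3.15e-04). Of 18 measured stemness genes and targets of KMT2A fusions 3 were higher (16.7%) and 5 lower (27.8%), all by under 1. The higher count was 1 without MOLM13 DMSO replicate 2 or 3 or MOLM13 SGI-7079 replicate 1 or 3. RUNX2, a transcription factor, rose less in MV411 (-0.42 ± 0.04 (adjusted p = 1.30e-05)), and MYB, a factor of blood progenitors, fell less (0.32 ± 0.04 (adjusted p = 7.25e-05)). Of 19 myeloid transcription factors 4 were higher and 3 lower, the latter 5 or 6 without any 1 of 6 libraries (replicates 1 and 2 of either DMSO group, replicate 2 of MOLM13 SGI-7079, replicate 1 of MV411 SGI-7079), and SPI1 and CEBPA, which set myeloid identity, had differences of -0.01 and -0.09 with 95% intervals of -0.11 to 0.08 and -0.20 to 0.03.

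Of 14 genes of fatty acid synthesis 3 were higher and 4 lower. FASN, fatty acid synthase, fell farther in MV411 (-0.47 ± 0.05 (adjusted p = 4.02e-05)), and ELOVL5, an elongase, and SREBF1, the transcription factor of the pathway, fell less there (0.39 ± 0.04 (adjusted p = 6.04e-06) and 0.34 ± 0.06 (adjusted p = 0.00147)). Of 18 genes of MHC class I 2 were higher (11.1%, or 1 gene without MV411 DMSO replicate 1) and 6 lower (33.3%). Among the 10685 genes with at least 5 CPM, 1549 were higher and 2249 lower. The median of the list was -0.09, which is inside the scaling shift and so has no firm sign. CALR, a chaperone of class I loading, had -0.59 ± 0.04 (adjusted p = 8.98e-07) and HLA-B -0.29 ± 0.05 (adjusted p = 5.27e-04), and ERAP2, which trims peptides, 0.64 ± 0.11 (adjusted p = 8.60e-04). Of 23 genes of NF-kappaB and inflammation 3 were higher and 5 lower (3 without MV411 SGI-7079 replicate 3). These shares were near those of the 10685 genes with at least 5 CPM, and the list median was inside the scaling shift. The list as a whole thus did not stand out from the background. Its member TNF fell from 252 to 106 CPM (MOLM13) and from 48.6 to 12.8 CPM (MV411), a difference of -0.68 ± 0.09 (adjusted p = 1.84e-04). Of 9 measured replication-dependent histones 1 was lower and 8 did not pass, and 3 and 2 were lower without MOLM13 DMSO replicates 1 and 2. Their mRNAs largely lack the poly(A) tail that the selection needs, and H2BC12 had -0.47 ± 0.15 (adjusted p = 0.0356), a call lost without MV411 SGI-7079 replicate 2 or 3.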
